A study of Mus musculus with 2 samples.

Results

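The expression of 10 basement membrane genes was measured in single cells from healthy and fibrotic mouse liver. The 10 genes, Col4a1, Col4a2, Col15a1, Col18a1, Lama4, Lamb1, Lamc1, Nid1, Nid2 and Hspg2, were named as a list and matched by Ensembl identifier, and all 10 were among the 30406 genes that both libraries list. The rule uses gene names and no measured value. The series holds 2 libraries of single-cell RNA sequencing, a healthy library and a library from carbon tetrachloride (CCl4) injured liver, each made once.

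Both libraries came from Col1a2-CreER:Rosa26tdTomato mice, in which a tamoxifen-inducible Cre under the Col1a2 promoter can turn on a red fluorescent protein in collagen-producing cells. The mice were on the C57BL/6 background and 8 to 10 weeks old when treatment began. The study used both sexes, and the sex of the mice behind each library is not given. The injured group received CCl4, a hepatotoxin, as a 10% solution in corn oil by intraperitoneal injection 2 times per week for 12 weeks. The labels call the samples whole liver cells, whereas the methods of the study describe protease digestion, a Nycodenz density gradient and magnetic removal of CD45+ leukocytes. How many mice went into each library, and whether tamoxifen was given to these mice, is not given in the sources used here. With 1 library per group, no difference between healthy and CCl4 carries a replicate check, and intervals in the text cover counting error only.

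Basement membranes are thin sheets of matrix that underlie epithelia, mesothelium and vessels and surround muscle-like cells. Laminins, trimers of an alpha, a beta and a gamma chain, form the first network on the cell surface. Type IV collagen, whose common trimer is built from the products of Col4a1 and Col4a2, forms the second. Nidogens (Nid1, Nid2) and the heparan sulfate proteoglycan perlecan (Hspg2) connect these networks, and the multiplexin collagens XV and XVIII (Col15a1, Col18a1) lie at the border to the interstitial matrix. The liver sinusoid is known for a sparse, discontinuous matrix in the space of Disse, while bile ducts, larger vessels and the liver capsule have typical basement membranes.

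Col4a1 and Col4a2 lie head to head, and the stretch that spans their start sites is shown because it ties the 2 genes whose levels followed each other most closely across cell classes. In the RefSeq annotation of GRCm38.p6 the 2 annotated starts, on opposite strands, are the outer bases of a 22-base stretch at chr8:11312805-11312826, read on the plus strand. Col4a2 is read rightward from the left base and Col4a1 leftward from the right base, so the 2 annotated transcripts overlap over this stretch. The first capital is the start base of Col4a2 and the last capital is the start base of Col4a1, which is read from the minus strand.
Col4a2 start to Col4a1 start: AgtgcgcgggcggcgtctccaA
RefSeq start windows, from 250 bases before to 50 bases after the start, were at hand for 7 of the 10 genes and not for Lama4, Lamc1 or Nid2. The letters GGGCGG, searched on both strands, were in 6 of the 8 windows of these genes and in 35.7% of all 32851 windows. CCAAT was in 5 of 8 and in 37.4% of all. TATAAA was in 0 of 8 and in 13.6% of all. Col18a1 had 2 of the 8 windows. The Col4a1 and Col4a2 windows overlap and both hold the stretch shown above, which itself contains GGGCGG.

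Quality filters kept 5602 healthy and 7314 CCl4 cells. The median number of unique molecular identifiers (UMIs, counts of captured RNA molecules) per cell was 6783.5 in the healthy and 11876 in the CCl4 library. Cells were grouped without using the 10 genes or their relatives, and classes were named from marker genes, so each class name carries "-like". The healthy library held 3025 endothelial-like, 1256 cholangiocyte-like and 231 mesothelial-like cells, and the CCl4 library held 3101 mesenchymal-like, 1474 mesothelial-like, 649 endothelial-like, 198 macrophage and monocyte-like, 111 T and NK-like and 67 neutrophil-like cells. These 9 combinations of class and library had at least 50 cells. A further 47 healthy hepatocyte-like cells are described but enter no count, and clusters with mixed markers or few UMIs stayed unnamed, with 18.1% of the healthy and 23.2% of the CCl4 cells. The healthy library was read out with Cell Ranger 3.1.0 and the CCl4 library with 6.0.1, and 10 cell barcodes occurred in both. Library, software and injury cannot be told apart. Levels are UMIs of a gene over all UMIs of the class, scaled to 1000000 UMIs (CPM), with exact Poisson 95% intervals. The counts are of 3′ ends and were not scaled by gene length, so levels are compared between classes for a gene and not between genes.

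In healthy liver, among the 3 classes with at least 50 cells, the collagen IV pair, Lama4, Nid1 and Hspg2 were mainly endothelial. Endothelial-like cells had the highest level of these 5 of the 10 genes among the 3 healthy classes, and each stood above the next class beyond counting error. Over all genes, 38.8% (5602 of 14435) were highest in endothelial-like cells. Mesothelial-like cells, which cover the liver surface, were highest for Lamb1, Lamc1 and Nid2, and nominally for Col15a1 on a single UMI. Cholangiocyte-like cells, the lining of bile ducts, were highest for Col18a1.

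Col4a1, the most studied collagen IV chain, was at 605 CPM (594 to 616) in healthy endothelial-like cells, 75.6 (71.6 to 79.8) in cholangiocyte-like and 53.9 (46.8 to 61.8) in mesothelial-like cells. Col4a2, its partner chain, was at 311, 36.4 and 33.6 CPM in the same order, and its last 2 classes did not differ beyond counting error. The endothelial-like level was 8.0 (7.56 to 8.47) times that of the next class for Col4a1 and 8.55 (7.88 to 9.28) times for Col4a2. Nid1, the major nidogen, was at 253 CPM in endothelial-like cells, 7.60 (6.38 to 9.13) times the 33.3 CPM of mesothelial-like cells, and at 1.51 in cholangiocyte-like cells. Hspg2 was at 478 CPM in endothelial-like, 82.6 in cholangiocyte-like and 55.7 in mesothelial-like cells. Lama4, the alpha chain typical of vessel laminin, was spread more evenly, at 155, 76.6 and 67.9 CPM in endothelial-like, mesothelial-like and cholangiocyte-like cells. Of all healthy UMIs of these genes, endothelial-like cells held 91.2% for Nid1, 83.8% for Col4a2, 83.3% for Col4a1, 79.0% for Hspg2 and 63.2% for Lama4. Such shares follow the cell numbers of the library as well as the level per cell. The 8 healthy mesenchymal-like cells, too few to enter the counts, had 568 CPM (406 to 774) of Nid1. In them Col4a1 was at 724 CPM (539 to 953), Col4a2 at 313 and Hspg2 at 185, and Lama4 had 0 UMIs. With each library clustered on its own, 59 healthy cells were mesenchymal-like, and these genes stayed highest in endothelial-like cells.

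Lamc1, the gamma chain of most laminins, had its highest healthy level in mesothelial-like cells, at 165 CPM (153 to 178) against 34.8 in endothelial-like and 32.1 in cholangiocyte-like cells. Lamb1, a beta chain, was low in the 3 healthy classes, at 13.5 CPM in mesothelial-like, 7.87 in cholangiocyte-like and 1.22 in endothelial-like cells. The 8 healthy mesenchymal-like cells, too few to enter the counts, had 298 CPM (185 to 456) of Lamb1 from 21 UMIs, and Lamb1 and Col15a1 were highest in healthy mesenchymal-like cells with each library clustered on its own. Nid2, the second nidogen, was at 20.1 CPM in mesothelial-like cells and at 2.29 and 0.223 in endothelial-like and cholangiocyte-like cells. Of the 3 genes, Lamc1 was made in near equal parts, with 34.6%, 32.0% and 29.0% of its healthy UMIs in endothelial-like, mesothelial-like and cholangiocyte-like cells. Col15a1 was almost absent from the whole healthy library, with 19 UMIs in 5602 cells. Of these, 7 fell in the 47 hepatocyte-like cells (3.77 CPM), 6 in the 8 mesenchymal-like cells (85.2 CPM), 4 in unnamed clusters, 1 each in mesothelial-like and endothelial-like cells (0.260 and 0.0508 CPM) and 0 in cholangiocyte-like cells, where 3 counts would be 0.168 CPM.

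Col18a1, the source of endostatin, stood apart because its highest level was in epithelial cells. It was at 92.5 CPM (88.1 to 97.0) in cholangiocyte-like cells, 39.1 in mesothelial-like and 4.47 in endothelial-like cells. The 47 hepatocyte-like cells had 355 CPM (328 to 383) from 660 UMIs, and 97.9% of them held at least 1 UMI at a median depth of 42899 UMIs. After thinning each cell to 2000 UMIs the share was 50.2%, against 16.4% in cholangiocyte-like cells and 0.889% in endothelial-like cells, which serve as the background. In the same 47 cells Lama4, Lamb1 and Hspg2 had 0 UMIs each, with an upper limit of 1.98 CPM. Hepatocyte markers moved with the cholangiocyte value: all 14 had UMIs in cholangiocyte-like cells, with a summed level of 8002 CPM against 82640 CPM in hepatocyte-like cells, and their part in the Col18a1 level was not tested. In 5 alternatives over 50 healthy cells were hepatocyte-like. Col18a1 was highest in them in 4 of these (192 to 340 cells), and in cholangiocyte-like cells with a mitochondrial limit of 10% (128 hepatocyte-like cells).

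**Figure D1:**
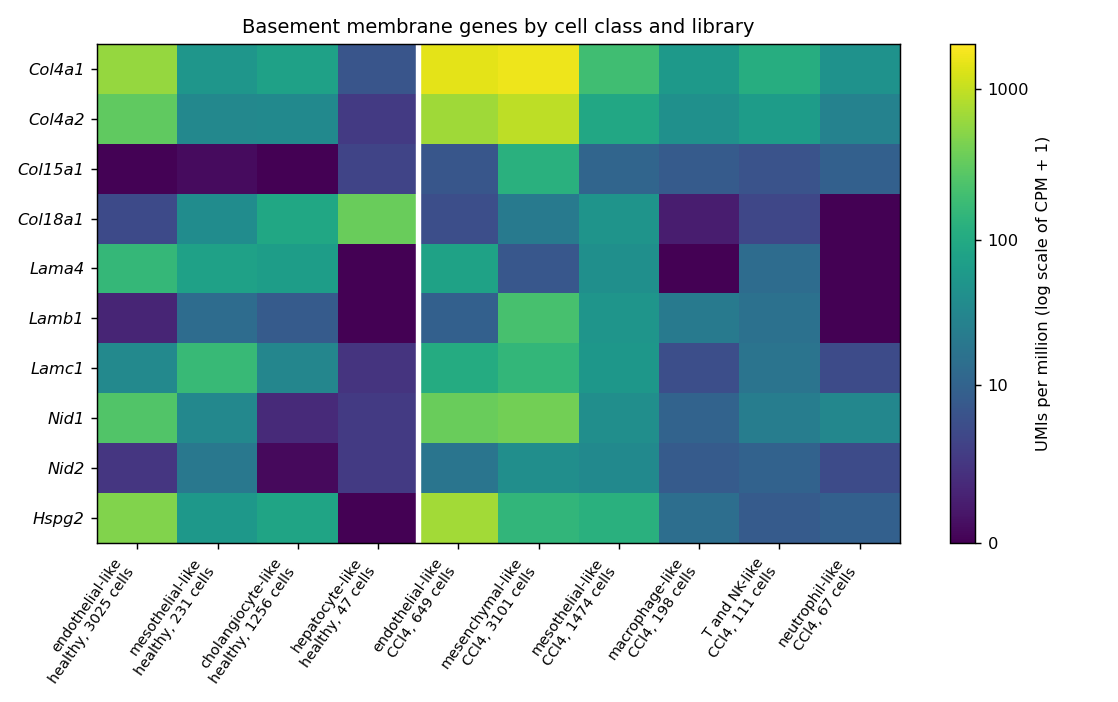
Levels of the 10 genes (rows) in each cell class of the healthy and CCl4 libraries (columns, with the number of cells), in CPM on a log scale of CPM + 1. Col4a1, Col4a2 and Nid1 are brightest in endothelial-like cells of both libraries and in CCl4 mesenchymal-like cells, Hspg2 in endothelial-like cells, and Col18a1 is brightest in hepatocyte-like cells (355 CPM).

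In CCl4 liver, mesenchymal-like cells had the highest level of 7 of the 10 genes among 6 classes, namely Col4a1, Col4a2, Col15a1, Lamb1, Lamc1, Nid1 and Nid2, each beyond counting error. Over all genes, 15.5% (1558 of 10082) were highest in this class. Lama4 and Hspg2 were highest in endothelial-like cells and Col18a1 in mesothelial-like cells. The epithelial classes were not ranked here, with 0 hepatocyte-like and 17 cholangiocyte-like CCl4 cells. Those 17 had 31.2 CPM (10.1 to 72.9) of Col18a1. The count of 7 rested on narrow gaps for several genes. It was 4 of 10 with each library clustered on its own and with 30 principal components, 5 with no doublet removal and 6 with each cell weighing the same. Col4a1 and Nid1 were highest in endothelial-like cells in the first pair of settings, with Lamc1 in the former, and Nid2 was highest in mesothelial-like cells in the latter. Lamc1 and Nid1 with no doublet removal, and Nid2 with equal weights, left the mesenchymal-like class in the same way.

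Col15a1 and Lamb1 had the widest gaps among the 7. Col15a1 was at 124 CPM (121 to 128) in mesenchymal-like cells, 11.3 (10.1 to 12.6) times the 11 CPM of mesothelial-like cells, and at 6.66 in endothelial-like cells. Lamb1 was at 219 CPM (214 to 223), 4.27 (4.05 to 4.52) times the 51.2 CPM of mesothelial-like cells, and at 9.42 in endothelial-like cells. The other gaps were smaller. Nid1 was at 390 CPM in mesenchymal-like against 346 in endothelial-like cells, a ratio of 1.13 (1.07 to 1.19). Nid2 was at 41.4 against 35.8 CPM in mesothelial-like cells, a ratio of 1.15 (1.07 to 1.25). Lamc1 was at 151 against 106 CPM in endothelial-like cells, a ratio of 1.42 (1.29 to 1.56). Col4a1 was at 1650 CPM in mesenchymal-like and 1450 in endothelial-like cells, and Col4a2 at 929 and 673 CPM.

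The 2 genes that stayed highest in endothelial-like cells had clear gaps to the mesenchymal-like level. Hspg2 was at 705 CPM (680 to 730) in endothelial-like, 148 in mesenchymal-like and 122 in mesothelial-like cells. Lama4 was at 78.1 CPM in endothelial-like, 42.7 in mesothelial-like and 6.81 in mesenchymal-like cells. Of the 10 genes, Lama4 had the smallest share of its CCl4 UMIs in mesenchymal-like cells, 14.1%, and mesothelial-like cells held 59.8%. Mesenchymal-like cells held 84.0% of the Col15a1 UMIs, 77.8% of Col4a2, 76.2% of Col4a1, 76.0% of Nid1 and 74.6% of Lamb1. These shares follow the cell numbers of the library as well as the level per cell.

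Leukocytes are not known as a main source of collagen IV, and the immune-like classes serve as the background of free RNA. Col4a1 was at 57.9 CPM in macrophage and monocyte-like, 113 in T and NK-like and 47.0 in neutrophil-like cells. A Col4a1 UMI was found in 18.0% of T and NK-like cells (median 4135 UMIs), 92.4% of CCl4 endothelial-like cells (median 6583) and 98.5% of mesenchymal-like cells (median 13842). After thinning to 2000 UMIs per cell these shares were 10.4%, 89.5% and 91.9%. For Lamb1 the thinned shares were 2.80% in T and NK-like, 1.76% in endothelial-like and 35.1% in mesenchymal-like cells, so the endothelial share did not exceed the background. For Col15a1 they were 0.995%, 1.1% and 18.4%, again with the endothelial share near the background. Both Col4a1 and Col4a2 were seen in 97.5% of mesenchymal-like, 85.1% of CCl4 endothelial-like, 75% of healthy endothelial-like and 7.21% of T and NK-like cells, without thinning.

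The endothelial comparison asks how the basement membrane genes of vessel cells differ between injured and healthy liver. In all, 6 of the 10 genes were at least 2-fold higher in CCl4 endothelial-like cells with an interval that excluded 1 (Col4a1, Col4a2, Col15a1, Lamb1, Lamc1 and Nid2), 0 were at least 2-fold lower and 4 were within 2-fold. Over 12998 genes tested, 7.55% were higher and 15.2% lower by the same rule. The median log2 ratio was 1.19 over the 10 genes and −0.31 over all genes. The class was held by different clusters in the libraries, led by Cxcl9 and Cxcl10, by Cyp26b1 and by Gm11361 and Sox2 in healthy and by Esm1 and Gpihbp1 in CCl4. Mitochondrial UMIs, a sign of RNA quality, moved with the library. A limit of 10% mitochondrial UMIs in place of 30% gave 1014 instead of 3025 healthy and 583 instead of 649 CCl4 endothelial-like cells, and 6 genes were again higher and 0 lower, with ratios of 2.95 for Col4a1 and 2.48 for Lamb1.

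Col4a1 was at 605 CPM in healthy and 1450 CPM in CCl4 endothelial-like cells, a ratio of 2.40 (2.33 to 2.47). Col4a2 was at 311 and 673 CPM, a ratio of 2.17 (2.07 to 2.26), which was 1.99 when each cell weighed the same. Lamc1 was at 34.8 and 106 CPM, a ratio of 3.05 (2.71 to 3.44). Nid2 was at 2.29 and 18.4 CPM, a ratio of 8.03 (5.51 to 11.8). Lamb1 rested on 24 and 41 UMIs, at 1.22 and 9.42 CPM, a ratio of 7.72 (4.55 to 13.4). Col15a1 rested on 1 and 29 UMIs, at 0.0508 and 6.66 CPM, a ratio of 131 (21.7 to 5350).

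Nid1, at 253 and 346 CPM, and Hspg2, at 478 and 705 CPM, were higher in CCl4 by less than 2-fold, with ratios of 1.36 (1.29 to 1.45) and 1.47 (1.41 to 1.54). Col18a1 was at 4.47 and 5.28 CPM, a ratio of 1.18 (0.712 to 1.89), and other settings gave 0.690 to 2.54. Lama4 was the one gene of the 10 with a lower level in CCl4 endothelial-like cells, at 155 and 78.1 CPM, a ratio of 0.505 (0.450 to 0.565). It sat just inside the 2-fold limit, and 5 of 13 alternatives put it past that limit. Lamb2, the main beta chain of these cells, was at 91.0 and 51.0 CPM, a ratio of 0.560 (0.485 to 0.644).

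Markers of other cell types moved with these ratios. All 14 mesenchymal markers had UMIs in endothelial-like cells of both libraries, with a summed level of 148 CPM in healthy and 818 CPM in CCl4. Col1a1, the fibrillar collagen of mesenchymal cells, was at 0.661 and 154 CPM, the latter 3.49% of its level in CCl4 mesenchymal-like cells. At that share the mesenchymal levels would give 57.6 CPM of Col4a1, 5.27 of Lamc1, 1.44 of Nid2, 4.34 of Col15a1 and 7.64 of Lamb1. The lower end of the measured interval was above such a value for 9 of the 10 genes and not for Lamb1. The counting error of Col1a1 itself was not included, and the Col15a1 margin was narrow, 4.46 against 4.34 CPM. Col15a1, at 6.66 CPM, also did not exceed the 7.47 CPM of CCl4 immune-like cells. The share over all genes was not computed. The 9 sinusoidal markers summed to 15137 CPM in healthy and 8525 in CCl4, all present in both, and Clec4g fell from 4053 to 1081 CPM. Hemoglobin Hbb-bs had 0 UMIs in healthy and 11780 CPM in CCl4 endothelial-like cells, of which little came from the large CCl4 sub-cluster described next. The part of these genes in the ratios was not tested. Scaling by TMM factors raised all log2 ratios by 0.23 in endothelial-like and 0.18 in mesothelial-like cells.

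Endothelial cells differ along the sinusoid and between vessel types, so the CCl4 cells were set beside each healthy sub-cluster. Of the CCl4 endothelial-like cells, 612 fell in a single sub-cluster led by Col1a1, Atp6v0c and Col3a1, with Hbb-bs at 16.2 CPM. Its level was above all 8 healthy sub-clusters for Col4a1, Col4a2, Col15a1, Lamb1, Lamc1, Nid1 and Nid2, and within their range for Col18a1, Lama4 and Hspg2. The share of all genes with such a position was not computed. Col15a1 and Lamb1, at 7.22 and 9.71 CPM there, did not exceed the 7.47 and 17.6 CPM of CCl4 immune-like cells. Col4a1 was at 1526 CPM there and at 298 to 876 CPM in the healthy sub-clusters. Lamc1 was at 107 CPM against 29.7 to 57.0, and Nid1 at 362 against 148 to 335. Nid2 was at 19.7 against 1.11 to 4.69.

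Among the healthy sub-clusters themselves, Lama4 was at 95.3 and 99.6 CPM in 2 central sinusoidal-like ones and at 212 CPM in the portal sinusoidal-like one, and the 79.4 CPM in CCl4 lay below all 3. The large vessel-like sub-cluster, with Vwf at 1130 CPM, had Col4a1 at 404 CPM and the lowest Hspg2, at 176 CPM. An Rspo3-led sub-cluster held central sinusoidal markers, but its Vwf, a gene of larger vessels, was the highest of the 8 at 1275 CPM, which goes against a sinusoidal name. It had the lowest Col4a1, Col4a2, Lama4 (47.7 CPM) and Nid1 of the 8, and the highest Lamc1. The sub-clusters were made from the same cells, and their differences are a description.

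**Figure D2:**
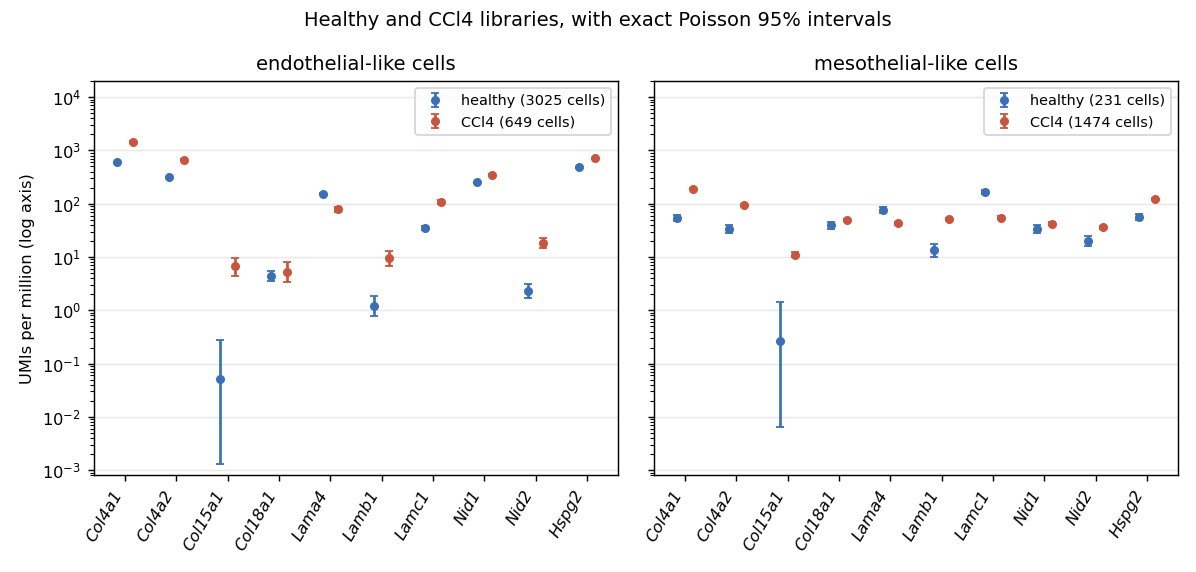
Level of each gene in CPM (log axis) in healthy and CCl4 endothelial-like cells (left) and mesothelial-like cells (right), with exact Poisson 95% intervals; each point is 1 library. Col4a1 and Col4a2 are higher in CCl4 in both classes, and Lamc1 is higher in CCl4 in endothelial-like (34.8 and 106) and lower in mesothelial-like cells (165 and 55).

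In mesothelial-like cells, 5 of the 10 genes were at least 2-fold higher in CCl4 (Col4a1, Col4a2, Col15a1, Lamb1 and Hspg2), Lamc1 was at least 2-fold lower and 4 were within 2-fold. Over 13345 genes tested, 11.6% were higher and 15.9% lower. The median log2 ratio was 0.98 over the 10 genes and −0.10 over all genes. The healthy cells came from a Myl7 and Upk3b-led cluster and the CCl4 cells from a Prg4 and Upk1b-containing cluster of 878 cells and a Serpinb2 and Cxcl5-led cluster of 595 cells.

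Col4a1 was at 53.9 CPM in healthy and 193 CPM in CCl4 mesothelial-like cells, a ratio of 3.57 (3.11 to 4.12), and Col4a2 was at 33.6 and 94.0 CPM, a ratio of 2.80 (2.34 to 3.36). Lamb1 was at 13.5 and 51.2 CPM, a ratio of 3.78 (2.87 to 5.09). Hspg2 was at 55.7 and 122 CPM, a ratio of 2.19 (1.91 to 2.52), and its ratio under other settings ran from 1.51 to 2.47. Col15a1 rested on 1 and 323 UMIs, at 0.260 and 11 CPM, a ratio of 42.4 (7.55 to 1679). The 20 healthy immune-like cells, a thin measure of free RNA, had 80.5 CPM (46.9 to 129) of Col4a1. They had 33.2 CPM (13.3 to 68.3) of Col4a2 and 71.1 (39.8 to 117) of Hspg2. The healthy mesothelial-like levels of these genes did not exceed those values beyond counting error. But the 20 cells also held the sinusoidal marker Clec4g at 1175 CPM, against 4053 in healthy endothelial-like and 19.5 in healthy mesothelial-like cells. The mesothelial-like Clec4g level was 0.482% of the endothelial-like one. At that share the endothelial-like levels would give 2.91 CPM of Col4a1 and 2.31 of Hspg2. All 10 genes were above such a value in healthy mesothelial-like cells, but Col15a1 only on its single UMI, below the 0.781 CPM that 3 counts would give. Such a value covers RNA from endothelial-like cells only, and the share over all genes was not computed. With the immune-like level of each library subtracted, the Col4a2 ratio was 104 and no ratio could be made for Col4a1 or Hspg2. The healthy level subtracted was that of the same 20 cells. Lamc1 was at 165 and 55 CPM, a ratio of 0.333 (0.304 to 0.366). Lama4, at 76.6 and 42.7 CPM, had a ratio of 0.557 (0.490 to 0.635), the same direction as in endothelial-like cells. Col18a1 was at 39.1 and 50.1 CPM, Nid1 at 33.3 and 42.1 and Nid2 at 20.1 and 35.8, with ratios of 1.28, 1.26 and 1.79, and the Nid1 ratio ran from 0.530 to 2.57 under other settings.

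The 2 CCl4 mesothelial-like clusters differed from each other. In the cluster with Prg4 and Upk1b and in the Serpinb2-led cluster, Col4a1 was at 247 and 126 CPM, Nid2 at 60.4 and 5.78 and Lamc3, a gamma chain outside the 10, at 171 and 17.0. The order was opposite for Nid1, at 19.0 and 70.3 CPM, Lama4, at 25.3 and 64.0, and Hspg2, at 85.8 and 166. The 10 mesothelial markers, all present in both libraries, summed to 9320 CPM in healthy and 2663 CPM in CCl4, and Msln fell from 2492 to 354 CPM. The 14 mesenchymal markers summed to 8370 and 10108 CPM, so they were present in the healthy mesothelial-like cells too, and Col1a1 was at 133 and 867 CPM. The CCl4 level of Col1a1 was 19.7% of the mesenchymal one. Col1a1 was also present in healthy mesothelial-like cells, where the library held 8 mesenchymal-like cells, so this share cannot measure carried-over mesenchymal RNA. Lama2, at 123 CPM in mesenchymal-like cells, was at 1.74 in CCl4 mesothelial-like cells. At 19.7%, 6 of the 10 genes were above the value the mesenchymal levels would give, and the share over all genes was not computed. The 4 that were not include 3 of the genes called higher, with Col4a1 at 193 against 325 CPM, Col4a2 at 94.0 against 183 and Col15a1 at 11 against 24.5, and Nid1, at 42.1 against 76.8. The part of these markers in the ratios was not tested.

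Hepatic stellate cells, the pericytes of the sinusoid, and portal fibroblasts are known sources of matrix in fibrosis. The 3101 CCl4 mesenchymal-like cells fell into 12 sub-clusters, of which 3 were stellate-like (1269 cells), 2 myofibroblast-like (243 cells), 2 portal fibroblast-like (501 cells) and 5 unnamed (1088 cells). The healthy library held 8 such cells, fewer than the minimum of 50, and no ratio to them was computed. All 10 genes were detected in each group of sub-clusters. Between the lowest and highest of the 12 sub-clusters, levels spanned from 2.34-fold for Nid1 to 14.0-fold for Col15a1 and 16.0-fold for Lama4. A shallow 84-cell Kdr-led sub-cluster set 1 end of these 3 spans, and without it Col15a1 ran from 32.9 to 265 CPM and Lama4 from 3.72 to 17.0 CPM.

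Apart from 2 shallow sub-clusters, Lamb1, Lamc1, Nid1 and Nid2 were higher in the stellate-like than in the other sub-clusters, and Col15a1 was lower. The margin was narrow for Nid2, and the share of all genes that separate in this way was not computed. Of the unnamed sub-clusters, 2 were shallow: the Kdr-led one (median 1420 UMIs) is left out of the ranges here, and a 129-cell Gm26917-led one (median 4036 UMIs) is named where it matters. Lamb1 was at 245 to 351 CPM in the 3 stellate-like sub-clusters. The other 8 had 84.2 to 214 CPM, apart from the Gm26917-led one at 464. Lamc1 was at 181 to 308 CPM against at most 161, apart from 314 in the same exception. Nid1 was at 454 to 632 CPM against at most 370, apart from 515, and Nid2 at 51.3 to 57.1 against at most 50.3, apart from 69.0. Lama1, the alpha chain of early embryonic laminin, was at 36.1 to 98.6 CPM against at most 35.3, apart from 46.0.

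Col15a1 was at 32.9 to 99.6 CPM in the stellate-like sub-clusters and at 121 to 265 CPM in all 8 others, with 2 myofibroblast-like sub-clusters at 161 and 265 and 2 portal fibroblast-like ones at 150 and 159. Stellate-like and myofibroblast-like sub-clusters overlapped in the collagen IV pair. Col4a1 was at 1630 to 2121 CPM in stellate-like, 1886 and 2430 in myofibroblast-like and 1098 and 1591 in portal fibroblast-like sub-clusters. Hspg2 was at 147 to 153, 158 and 182, and 132 and 133 CPM in the same order. The Kdr-led sub-cluster had the highest Hspg2, at 555 CPM, the highest Lama4, at 59.5, and the lowest Col15a1, at 18.9, and without it the mesenchymal-like class stayed highest for the same number of genes.

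**Figure D3:**
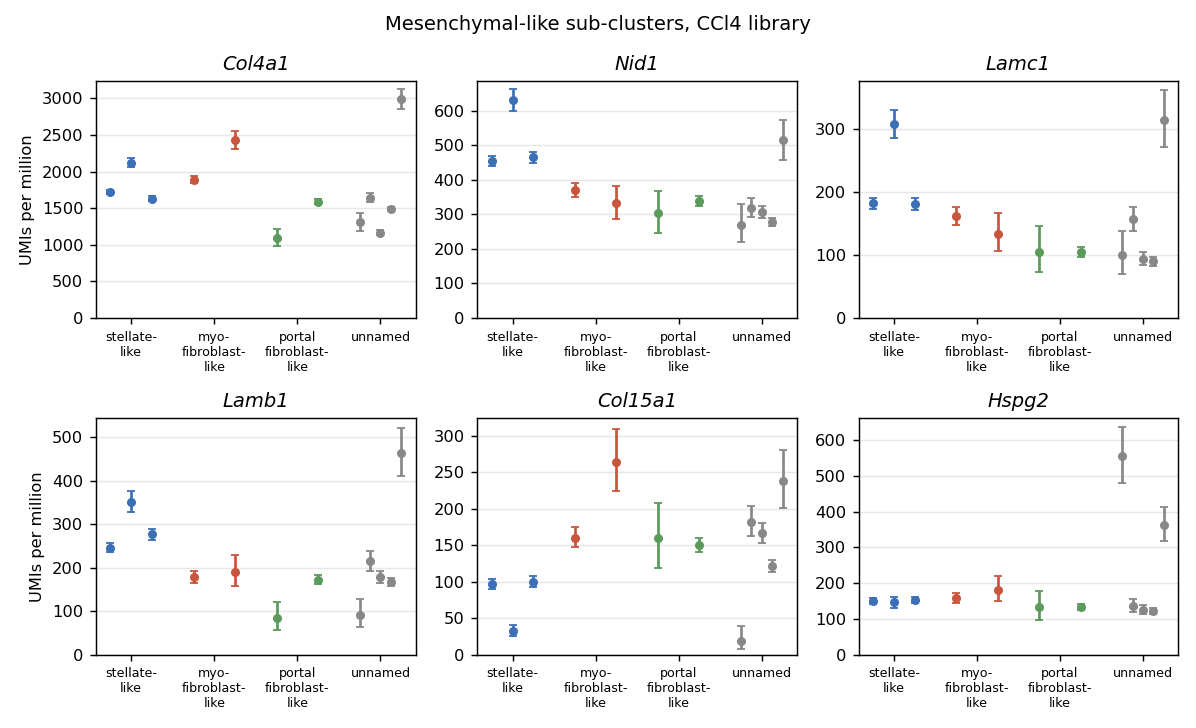
Levels in CPM of Col4a1, Nid1, Lamc1, Lamb1, Col15a1 and Hspg2 in the 12 mesenchymal-like sub-clusters of the CCl4 library, grouped by name, with exact Poisson 95% intervals; each point is a sub-cluster of 1 library. The 3 stellate-like points lie at 32.9 to 99.6 for Col15a1, below the named other points, and at 245 to 351 for Lamb1, above them.

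Laminin is secreted as a trimer, and the 3 laminin genes among the 10 were set beside other chains, with Lamc1 set beside Lamc3 alone. Shares of chain UMIs rest on 3′ counts, so they are compared between classes and not read as protein ratios. In healthy endothelial-like cells Lama4 made up 77.8% of alpha chain UMIs, Lamb2 98.6% of beta chain UMIs and Lamc1 98.1% of Lamc1 and Lamc3 UMIs, with Lamb1 at 1.32% of beta. In CCl4 endothelial-like cells the shares were 68.8% for Lama4, 84.4% for Lamb2, 15.6% (11.4 to 20.5, exact binomial) for Lamb1 and 98.9% for Lamc1. Lamb1 in this class was near the free RNA background given above.

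Mesenchymal-like cells had a different set. Lama2, the alpha chain of muscle laminin, made up 69.3% and Lama1 16.9% of alpha chain UMIs, against 3.84% for Lama4. Lamb1 made up 81.3% and Lamb2 16.6% of beta chain UMIs, and Lamc1 97.7% of Lamc1 and Lamc3 UMIs. Lamb1 per Lamb2 UMI was 4.88 (4.65 to 5.13) in these cells, 0.185 (0.129 to 0.259) in CCl4 endothelial-like and 0.0134 (0.00856 to 0.0200) in healthy endothelial-like cells.

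Lamc3 was at 181 CPM in healthy cholangiocyte-like cells and at 0.661 CPM in healthy endothelial-like cells. It made up 85% (83.8 to 86.1) of the Lamc1 and Lamc3 UMIs in healthy cholangiocyte-like cells. In mesothelial-like cells its share was 3.5% (2.23 to 5.21) in healthy and 64.9% (63.5 to 66.3) in CCl4. Their Lamb1 share of beta chains was 6.36% in healthy and 43.7% in CCl4, and their alpha chains were Lama5 (56.0% and 42.5%) and Lama4 (40.8% and 51.1%). As levels, Lamc3 was at 5.99 CPM in healthy and 102 in CCl4 mesothelial-like cells, while Lamb2 was at 196 and 65.4 and Lama5 at 105 and 35.5.

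**Figure D4:**
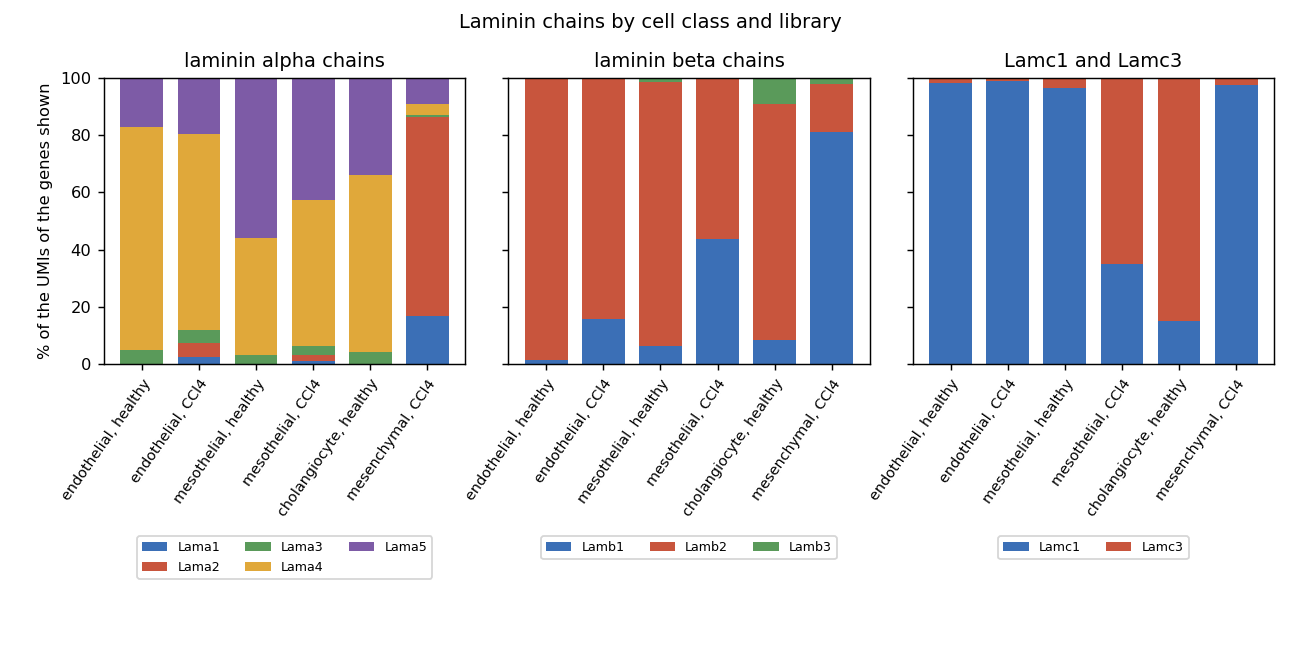
Share (%) of each alpha and beta chain gene among the UMIs of that chain type, and of Lamc1 and Lamc3 among the UMIs of these 2 genes, in 6 combinations of class and library (stacked bars from 0 to 100). Lama2 and Lamb1 fill most of the mesenchymal-like bars (69.3% and 81.3%), and Lamc3 fills most of the right-hand bars of CCl4 mesothelial-like and healthy cholangiocyte-like cells (64.9% and 85%).

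Within the 10 genes, the 2 collagen IV chains kept a similar proportion across classes, though some classes differed beyond counting error. Col4a1 UMIs per Col4a2 UMI were 1.95 (1.89 to 2.01) in healthy endothelial-like, 2.16 (2.06 to 2.25) in CCl4 endothelial-like, 1.78 (1.75 to 1.80) in mesenchymal-like, 1.60 (1.28 to 2.02) and 2.05 (1.96 to 2.15) in healthy and CCl4 mesothelial-like, and 2.08 (1.89 to 2.29) in cholangiocyte-like cells. In macrophage and monocyte-like, T and NK-like and neutrophil-like cells, with few UMIs, it was 1.31 (0.899 to 1.93), 1.73 (1.11 to 2.74) and 1.67 (0.549 to 5.58). In the 14 combinations of cluster and library with at least 100 UMIs of each chain, the ratio ran from 1.56 to 2.15 with a median of 1.95. The nidogen ratio spread far more widely. Nid1 UMIs per Nid2 UMI were 111 (82.7 to 152) in healthy endothelial-like, 18.8 (15.0 to 23.9) in CCl4 endothelial-like, 9.42 (8.98 to 9.90) in mesenchymal-like and 1.66 (1.24 to 2.24) and 1.17 (1.08 to 1.28) in healthy and CCl4 mesothelial-like cells.

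**Figure D5:**
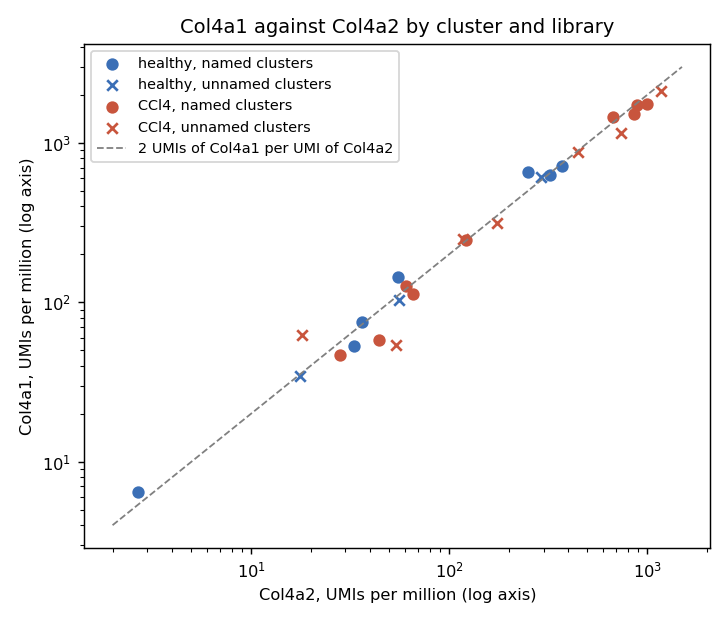
Col4a1 against Col4a2 in CPM (both axes log) for each of 26 combinations of cluster and library; dots are named and crosses unnamed clusters, and the dashed line marks 2 UMIs of Col4a1 per UMI of Col4a2. The points follow the line from the hepatocyte-like cluster (6.46 and 2.69) to the unnamed CCl4 cluster with 2105 and 1170.

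Across the 9 combinations of class and library, the Pearson r of log2(CPM + 10) was 0.995 for Col4a1 and Col4a2, 0.93 for Nid1 and Col4a2, 0.85 for Lamb1 and Col15a1 and −0.52 for Lama4 and Col15a1. The 9 points share 2 libraries and differ in depth, and r is given as a description. Of 6622 genes compared, those most like Col4a1 were Nexn (0.956), Nes (0.950) and Raph1 (0.948), and those most like Col4a2 were Clca3a1 (0.968), Nexn (0.965) and Raph1 (0.963). Col15a1 was most like Ctsk (0.996), Pdgfrb (0.988) and Epha3 (0.987), Lamb1 most like Htra3 (0.975), and Hspg2 most like Bcar1 (0.988). The first match was Efna1 (0.977) for Lama4, B9d1 (0.983) for Col18a1, Synpo (0.950) for Lamc1, Tbx2 (0.948) for Nid1 and Prrc1 (0.953) for Nid2.

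A wider list of 46 genes held the other chains, associated proteins, collagen IV folding factors and receptors. Of 12 associated proteins tested in endothelial-like cells, 2 were higher and 3 lower in CCl4, beside 7.55% and 15.2% over all genes. Sparc, which binds collagen IV, was at 1564 CPM in healthy and 4216 in CCl4 (ratio 2.70, 2.65 to 2.75), while Tinagl1, a matricellular protein, was at 1381 and 581, and Ntn4, a laminin-binding netrin, at 437 and 158. None of the 7 folding and secretion genes was at least 2-fold higher by this rule and 1, P4ha2, was lower, and the collagen chaperone Serpinh1 was at 233 and 304 CPM. Of 10 receptors, 3 were higher and 1 lower. The laminin receptor subunit Itga6 was at 66.0 and 170 CPM (ratio 2.58, 2.35 to 2.82), and Itga1, the collagen IV receptor subunit, was at 553 and 436. Of 3 other collagen IV chains tested 1, Col4a5, was higher, as were the laminin chains Lama1 and Lama2, all under 6 CPM in CCl4 endothelial-like cells. Their levels there, 1.84, 2.76 and 5.51 CPM, did not exceed the 13.9, 5.95 and 5.95 CPM of T and NK-like cells.

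In mesothelial-like cells, where 11.6% of all genes were higher and 15.9% lower in CCl4, 0 of the 4 other collagen IV chains were higher and 2 were lower. Among laminin chains outside the 10, Lama3, Lama5, Lamb2 and Lamb3 were lower, with ratios of 0.422, 0.338, 0.333 and 0.175, and Lamc3 (ratio 17.0) and Lama2 (0 and 51 UMIs) were higher. The CCl4 level of Lama2, 1.74 CPM, did not exceed the 5.95 CPM of T and NK-like cells. Col4a4, a chain of the collagen IV network of the glomerulus, was at 185 CPM in healthy and 6.15 in CCl4, and Bcam, a receptor for Lama5-containing laminin, at 1172 and 128. Of the associated proteins 3 were higher and 5 lower among 13, with Hmcn1 at 6.25 and 77.3 CPM, Sparc at 1917 and 4020 and Fras1 at 71.9 and 14.0. Of the receptors 1 was higher and 3 lower among 11, and of the folding genes 0 and 1 among 7. In CCl4 mesenchymal-like cells Sparc was at 10092 CPM, Serpinh1 at 1152, Itga1 at 681 and Smoc2, a calcium-binding matrix protein, at 353.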

How the data were processed

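Single-cell 3′ libraries were made with the 10x Chromium system (v2 chemistry per the labels), 1 per group. The authors deposited filtered matrices of whole-number UMI counts from Cell Ranger 3.1.0 (healthy, 31053 genes, 6297 cells, 51122846 UMIs) and 6.0.1 (CCl4, 32285 genes, 8460 cells, 97611831 UMIs), per the file headers. The labels and methods name human and mouse builds, the identifiers are mouse, and no coordinates were taken from the matrices. Genes were joined by identifier.

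Cells under 500 UMIs, under 200 genes or over 30% mitochondrial UMIs were dropped, and 277 and 487 doublets (scanpy 1.11.5, Scrublet) were removed. Counts were log-normalized to 10000 per cell and both libraries clustered together (2000 variable genes without the 10 genes and the 46 related genes, 10 principal components, 20 neighbors, Leiden resolution 1), giving 24 clusters, 15 of them named by at least 3 markers. UMIs were summed per class and library. Genes called had a ratio of at least 2 and an exact conditional binomial 95% interval excluding 1, and the routine was tested on simulated counts. Named genes were the 10 genes, related genes with at least 50 CPM in a class (others, such as cell type markers and chains counted in a list, were named after their values were seen) and the 3 genes most like each. The genes and lists were chosen with earlier results of these data known. Alternatives changed the filters, doublets, depth, clustering, weights, background and scaling (edgeR 4.0.16 TMM). Sequences were taken from RefSeq. A related gene is not reported here.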

Additional observations from a re-analysis of the deposited data

Results flagged for a closer look

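Lamc1, the gamma chain common to most laminins, moved in opposite directions in the 2 classes that could be compared between the libraries. Its CCl4 over healthy ratio of CPM was 3.05 (2.71 to 3.44, 95% counting interval) in endothelial-like cells and 0.333 (0.304 to 0.366) in mesothelial-like cells. Under the alternatives run, the ratio was 2.82 to 4.42 in endothelial-like and 0.290 to 0.428 in mesothelial-like cells. Each class had 1 library per group, so the difference between the classes was not tested across samples, and no explanation was tested.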

How the results depend on the processing

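Of 242 values of the 20 ratios under alternatives, 164 moved by less than counting error, 78 moved further, and 225 stayed on the same side of the call. No called ratio (0) changed direction, while 2 ratios within 2-fold fell on both sides of 1, Col18a1 in endothelial-like (0.690 to 2.54) and Nid1 in mesothelial-like cells (0.530 to 2.57). The 17 changed calls were in 7 ratios. In endothelial-like cells Lama4 changed in 5 alternatives, Col18a1 became higher in 2 (2.54 with no doublet removal, 2.36 with each library clustered on its own) and Col4a2 lost its call in 1 (1.99 with each cell weighing the same). In mesothelial-like cells Hspg2 lost its call in 3 (1.51 with 30 principal components, 1.54 without the Serpinb2-led cluster, 1.84 with each cell weighing the same), Nid2 became higher in 3 (3.1 with 30 principal components, 3.01 without that cluster and 2.02 with TMM factors), Lama4 became lower in 2 and Nid1 became higher in 1 (2.57 with no doublet removal). The number of genes lower in CCl4 endothelial-like cells was 1 (Lama4) instead of 0 with no doublet removal, with each library clustered on its own, with each cell weighing the same, and in 2 settings chosen after seeing the data (without the large vessel-like, Sox2-led, Ccl21a-led and Hba-a1-led sub-clusters, and with the unnamed endothelial and hepatocyte-marked cluster). Genes lower in mesothelial-like cells were 2 (Lamc1, Lama4) instead of 1 with 30 principal components and without the Serpinb2-led cluster, the latter also chosen after seeing the data. Genes highest in CCl4 mesenchymal-like cells were 4 instead of 7 with each library clustered on its own and with 30 principal components, 5 with no doublet removal and 6 with each cell weighing the same. With the level in immune-like cells subtracted, 3 genes instead of 6 were higher in endothelial-like and 3 instead of 5 in mesothelial-like cells. For 8 ratios no value could be made because a level did not exceed that of the immune-like cells of its library. In endothelial-like cells this was the CCl4 level for Col15a1 (6.66 against 7.47 CPM) and Lamb1 (9.42 against 17.6). For the other ratios it was the healthy level. The healthy immune-like level came from 20 cells that held Clec4g at 1175 CPM, against 19.5 in healthy mesothelial-like cells. The cause of the other moves was not tested. The Col4a2 ratio in mesothelial-like cells rose from 2.80 to 104 with the immune-like level subtracted. In endothelial-like cells Col15a1 ran from 31.4 to 453 and Lamb1 from 2.48 to 103. No paired analysis was possible because each group has 1 library.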

Other observations

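Several unnamed clusters carried Col4a1, at levels from below to above those of the named sources (1450 CPM in endothelial-like and 1650 in mesenchymal-like cells of the CCl4 library, 605 in healthy endothelial-like cells). A CCl4 cluster of 262 cells with all 16 endothelial and 12 of the mesenchymal markers, led by Lama1, Tmem56 and Vipr1, had Col4a1 at 2105 CPM (median 5498 UMIs), Hspg2 at 405, Lamb1 at 349, Nid1 at 571 and Lama1 at 97.5. A healthy cluster of 534 shallow cells (median 1383.5 UMIs) with endothelial and hepatocyte markers had Col4a1 at 615 CPM, Hspg2 at 654 and Nid1 at 246. A CCl4 cluster of 724 shallow mesenchymal-marked cells had Col4a1 at 1155 CPM and Lamb1 at 199, and a cycling CCl4 cluster of 119 cells had 875 and 126.

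Other shallow clusters followed the epithelial pattern. A healthy cluster of 178 cholangiocyte-marked cells, led by Lamc3, had Lamc3 at 320 CPM, Hspg2 at 240 and Col18a1 at 125, and 274 healthy hepatocyte-marked cells had Col18a1 at 86.4 CPM, against 33.6 in 104 CCl4 cells of the same cluster. These levels are descriptions of single libraries.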
